A study of Mus musculus with 12 samples.

Results

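Collagen chains are the polypeptides that wind in threes into the collagens of the extracellular matrix, and their genes were read here as RNA in cancer cells sorted from mouse lung tumours. The chains were all genes of the count table whose symbol has the form Col, a number, the letter a and a number. They made up 43 of the 30743 rows: 11 fibrillar chains, 6 type IV (basement membrane) chains and 26 other chains. The 12 libraries, all from mice of mixed BL6/129 strain, fall into 4 groups by title. KT is the genotype shared by every group and serves alone as the reference (4 libraries). KT;Lkb1f/f tumours also carry floxed alleles of Lkb1 (Stk11), a kinase that activates the salt-inducible kinases, and are called Lkb1-deleted (3 libraries). KT;H11LSL-Cas9 tumours have Cas9 that Cre switches on, with guides against Sik genes. Their titles read sgSik1 in 3 libraries and sgSik1-3 in 2, and 1 genotype label covers all 5, called Sik-targeted here. The titles do not state which genes the range in sgSik1-3 covers or whether libraries of a group came from separate animals, so p-values measure the spread between these libraries, which may be technical. The alternative sample names mention lentiviral Cre for KT replicates 2 to 4 and not for KT replicate 1. The comparisons ask how RNA in tumour cells without Lkb1, or with Sik genes targeted, differs from that in KT cells.

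Fibrillar chains such as those of types I and III form the tensile fibres of connective tissue and are made chiefly by fibroblasts and related stromal cells. Type IV chains form the sheet-like network of basement membranes: the ubiquitous network holds the products of Col4a1 and Col4a2, and the alveolar and glomerular basement membranes also hold a network of the Col4a3, Col4a4 and Col4a5 products. Type VI chains form beaded microfibrils next to basement membranes. Col15a1 and Col18a1 encode the multiplexins, basement membrane proteoglycans whose C-terminal fragments are restin and endostatin.

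Levels are given as CPM (counts scaled to a common library size), with library sizes normalised by the trimmed mean of M values (TMM). Libraries held 3847760 to 13955181 counts, of which collagen chains took 0.0280% to 0.214%. Stk11 lay between 9.23 and 16.6 CPM in Lkb1-deleted libraries and between 31.0 and 44.7 CPM in KT libraries. Sik3 averaged 36.0 ± 8.79 CPM (SD, n = 4) in KT, 17.0 ± 6.82 CPM (SD, n = 3) in sgSik1 and 10.3 ± 2.27 CPM (SD, n = 2) in sgSik1-3 libraries, and fell by 1.33 ± 0.34 (SE) on the log2 scale in Sik-targeted against KT libraries (edgeR adjusted p = 0.0209). Sik1 was higher in Sik-targeted libraries (105 to 514 CPM) than in KT libraries (38.2 to 59.6 CPM), so its RNA level does not show the edit. The epithelial genes Epcam (118 to 388 CPM) and Cdh1 (430 to 1198 CPM) were present in all libraries. KT replicates 2 and 3 stand apart: 23582 and 23747 genes had a count there against 14283 to 16533 in the other 10 libraries, and so did 1000 and 1066 genes of the olfactory and vomeronasal receptor families, against 14 to 58. All 43 chains had a count in each of these 2 libraries, against 26 to 37 chains elsewhere. For chains called against KT, the result without both libraries is also given. Further gene lists, and counts of chains without overlap between groups, are given with them only.

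Type IV chains took most of the collagen RNA in every library, from 50.9% to 72.5% of the CPM summed over chains. In the ranking by median level per kilobase of exon, Col4a2 stood first (29.6 CPM per kb) and Col4a1 second (20.5 CPM per kb). Col6a1 (9.48 CPM per kb) and Col4a3 (7.49 CPM per kb) came next, and their ranges over libraries overlapped. The multiplexins took 1.98% to 5.20% of collagen CPM in KT libraries, 2.48% to 20.7% in Lkb1-deleted libraries and 7.93% to 32.9% in Sik-targeted libraries. Their share in each of the 5 Sik-targeted libraries was above that in each of the 4 KT libraries. Fibrillar chains took the most variable share of KT collagen RNA, from 4.865% in replicate 1 to 27.54% in replicate 4.

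**Figure D1:**
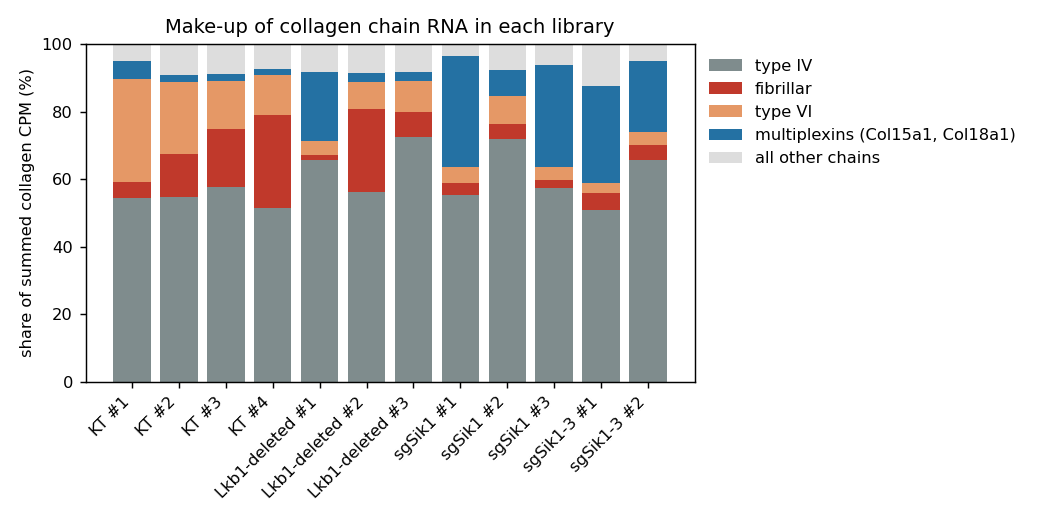
Share of the CPM summed over 43 collagen chains (vertical axis, %) taken by type IV, fibrillar, type VI, multiplexin and all other chains in each of 12 libraries (one bar each, stacked to 100). Type IV chains fill at least 50.9% of every bar, and the multiplexin segment reaches 32.9% in sgSik1 replicate 1.

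Between Sik-targeted and KT libraries, 2 chains rose and 8 fell (adjusted p under 0.05, edgeR quasi-likelihood test with Benjamini-Hochberg adjustment over 13575 genes). Of all genes tested, 5.81% rose, 6.56% fell and 12.4% were called in either direction. Of the 43 chains, 29 passed the filter on low counts, and the 14 others were not tested. The median log2 change of the 29 tested chains was -1.56, against -0.03 for all genes tested. Col10a1 and Col13a1, 2 of the 8, passed the filter only through their KT counts and so had to be lower in the other groups. The count of 8 and this median are therefore descriptions. The 2 that rose were both multiplexins. Those that fell were 3 type VI chains, 1 of 7 tested fibrillar chains (Col3a1), 1 of 6 type IV chains (Col4a4), the transmembrane chains Col13a1 and Col23a1, and the network chain Col10a1. Without KT replicates 2 and 3, no chain passed in edgeR, and 98 genes passed in all. Without KT replicate 2 alone 4 chains passed, and without KT replicate 3, KT replicate 4, sgSik1 replicate 3 or sgSik1-3 replicate 2 alone 5 passed. Lkb1-deleted libraries are in neither group compared, but they enter the filter on low counts, the normalisation and the shared estimate of spread. Leaving out Lkb1-deleted replicates 1 or 2 gave 23 and 17 chains, and with no filter on low counts 24 passed. The share of all genes called is not shown for the fits with 1 library left out or with no filter. Their counts of chains are therefore descriptions.

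**Figure D2:**
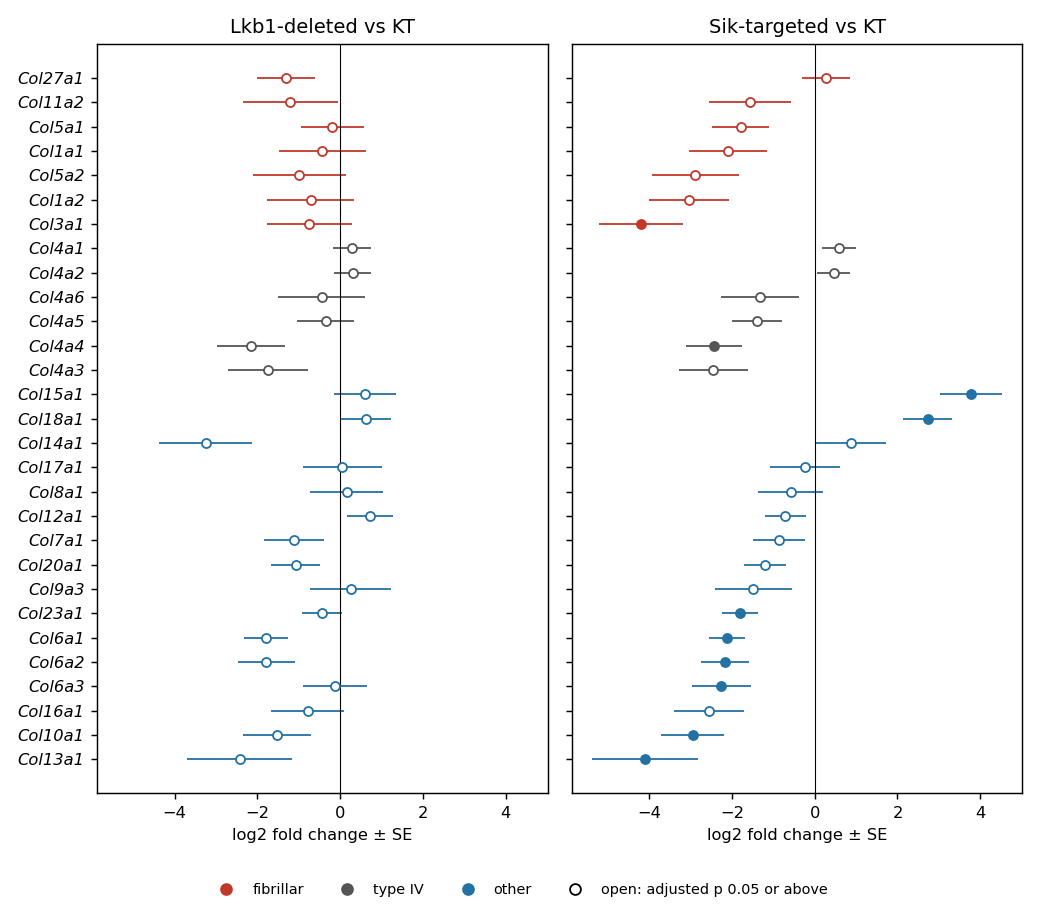
Log2 fold change with its standard error (horizontal axes) for the 29 tested collagen chains, Lkb1-deleted against KT libraries on the left and Sik-targeted against KT libraries on the right. Filled points passed an adjusted p of 0.05: 10 on the right, 2 above 0 and 8 below, and none on the left. The value plotted for Col13a1 on the right is a fitted one that rests on 2 counts in the Sik-targeted libraries.

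Col15a1 encodes the chain of type XV collagen, which links basement membranes to the matrix beneath. Its level was 5.66, 6.55, 7.31 and 5.94 CPM in KT replicates 1 to 4. It was 166, 20.9 and 106 CPM in the 3 sgSik1 libraries and 23.9 and 120 CPM in the 2 sgSik1-3 libraries. All 5 Sik-targeted libraries lay above all KT libraries, among which Col15a1 was nearly constant. The log2 change was 3.77 (SE 0.75, adjusted p = 0.00780), a mean of 87.5 ± 63.5 CPM (SD, n = 5) against 6.37 ± 0.728 CPM (SD, n = 4). Lkb1-deleted libraries held 21.6, 5.66 and 1.47 CPM, 1 library above all KT libraries and 2 below them (replicate 2 by less than the rounding shown), with no detected difference from KT (log2 change 0.60, SE 0.75, adjusted p = 0.810). Without KT replicates 2 and 3 the Sik-targeted change was 3.89 (SE 1.13, adjusted p = 0.124).

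Col18a1 encodes the chain of type XVIII collagen, the source of endostatin. KT replicates 1 to 4 held 25.8, 10.5, 18.1 and 19.5 CPM. The sgSik1 libraries held 298, 24.3 and 78.8 CPM, and the sgSik1-3 libraries 119 and 90.9 CPM. sgSik1 replicate 2 fell within the KT range and the other 4 Sik-targeted libraries were above it. Col18a1 rose by 2.73 on the log2 scale (SE 0.58, adjusted p = 0.00993), and by 2.4 without KT replicates 2 and 3 (SE 0.79, adjusted p = 0.161). Lkb1-deleted libraries held 44.8, 24.0 and 16.5 CPM, with replicate 1 above the KT range, and did not pass against KT (log2 change 0.63, SE 0.60, adjusted p = 0.726). In the direct comparison of Lkb1-deleted with Sik-targeted libraries, neither Col15a1 (log2 change -3.18, SE 0.82, adjusted p = 0.133) nor Col18a1 (-2.10, SE 0.63, adjusted p = 0.189) passed. The call for Lkb1-deleted against Sik-targeted Col15a1 depended on single libraries, with an adjusted p from 0.00722 to 0.499 when each was left out in turn.

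The sequences upstream of Col18a1 and Col3a1 are shown because Col18a1 rose and Col3a1, described further on, was the fibrillar chain that fell. They lie outside the GENCODE M21 and RefSeq spans of both genes, at chr10:77166549-77166780 on the minus strand for Col18a1 and chr1:45311288-45311537 on the plus strand for Col3a1, and are read 5′ to 3′ along the gene (RefSeq promoter table, GRCm38.p6). Capitals mark matches, on either strand, to the motifs searched: TGACGTCA (the palindromic CREB element), TGACG (its core, which also lies within TGACGTCA), TGANTCA (AP-1), TATAAA (the core of the TATA box), CCAAT (the element of the same name) and lastly GGGCGG (the GC box).
Col18a1: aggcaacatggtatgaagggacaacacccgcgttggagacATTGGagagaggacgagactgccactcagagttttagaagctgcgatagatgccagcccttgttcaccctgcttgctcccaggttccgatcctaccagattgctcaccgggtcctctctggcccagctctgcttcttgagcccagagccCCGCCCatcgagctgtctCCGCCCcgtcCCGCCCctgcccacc
Col3a1: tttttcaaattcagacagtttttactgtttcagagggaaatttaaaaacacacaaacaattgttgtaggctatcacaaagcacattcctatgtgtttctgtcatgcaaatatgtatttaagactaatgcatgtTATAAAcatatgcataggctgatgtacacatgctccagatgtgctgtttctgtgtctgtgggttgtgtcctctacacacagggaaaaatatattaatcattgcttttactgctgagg
The Col18a1 window held CCAAT on the opposite strand 210 bases before the RefSeq start (77166530). It held 3 GC boxes on the opposite strand 61, 43 and 33 bases before that RefSeq start. The printed sequence ends just before the GENCODE M21 start (77166548), which lies upstream of the RefSeq start. The Col3a1 window held TATAAA on its own strand 117 bases before the start. Of 32851 promoter windows of 300 bases, TGACGTCA was in 1.79%, TGACG in 20.8%, TGANTCA in 7.81%, TATAAA in 13.6%, CCAAT in 37.4% and GGGCGG in 35.7%. Of the 35 chains with an entry, 1 held TGACGTCA, 4 TGACG, 1 TGANTCA, 5 TATAAA, 13 CCAAT and 22 GGGCGG. A match describes the letters and not a bound site.

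With Sik targeting 3 type VI chains fell. Col6a1, one of the short chains of the microfibril, was at 127, 121, 93.4 and 77.0 CPM in KT replicates 1 to 4. The sgSik1 libraries held 39.2, 28.0 and 18.2 CPM and the sgSik1-3 libraries 10.4 and 25.2 CPM. All Sik-targeted libraries were below all KT libraries, and Col6a1 fell by 2.12 on the log2 scale (SE 0.44, adjusted p = 0.00883). Lkb1-deleted libraries, at 8.38, 38.5 and 43.9 CPM, were also below all KT libraries, without passing the test (log2 change -1.79, SE 0.52, adjusted p = 0.123). Without KT replicates 2 and 3 the Sik-targeted change was -2.10 (SE 0.55, adjusted p = 0.0960).

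Col6a2, the other short chain, was at 52.2, 48.4, 43.5 and 48.2 CPM in the KT libraries. Sik-targeted libraries held 23.6, 15.1 and 3.11 CPM (sgSik1) and 2.83 and 9.77 CPM (sgSik1-3), again all below KT. It fell by 2.16 on the log2 scale (SE 0.59, adjusted p = 0.0274). Lkb1-deleted libraries, at 3.89, 25.8 and 12.1 CPM, were below all KT libraries and did not pass (log2 change -1.78, SE 0.69, adjusted p = 0.258). The call for Col6a2 was lost when any 1 of the 4 KT libraries was left out (adjusted p = 0.0583, 0.0688, 0.0607 and 0.0502 without replicates 1 to 4), without sgSik1 replicate 3 (0.0566), without sgSik1-3 replicate 1 (0.0523), without sgSik1-3 replicate 2 (0.0638) and without KT replicates 2 and 3 (0.156).

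Col6a3, the long chain, was at 4.25, 9.53, 15.3 and 25.5 CPM in KT libraries. The sgSik1 libraries held 4.55, 2.99 and 1.80 CPM and the sgSik1-3 libraries 1.42 and 3.62 CPM. KT replicate 1 was within the Sik-targeted range. The log2 change of -2.26 (SE 0.71, adjusted p = 0.0496) was just under the threshold, and it was lost without 9 of the 12 libraries left out one at a time, with adjusted p up to 0.140 (without KT replicate 4, where the change was -1.82). It was -2.42 without KT replicates 2 and 3 (adjusted p = 0.207). Lkb1-deleted libraries held 0.729, 25.9 and 10.7 CPM and spanned the KT range. The 3 remaining type VI chains, Col6a4, Col6a5 and Col6a6, were not tested: 95.3%, 100% and 85.5% of their counts lay in KT replicates 2 and 3. Col6a5 had 33 and 55 counts in those 2 libraries and 0 in the other 10.

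**Figure D3:**
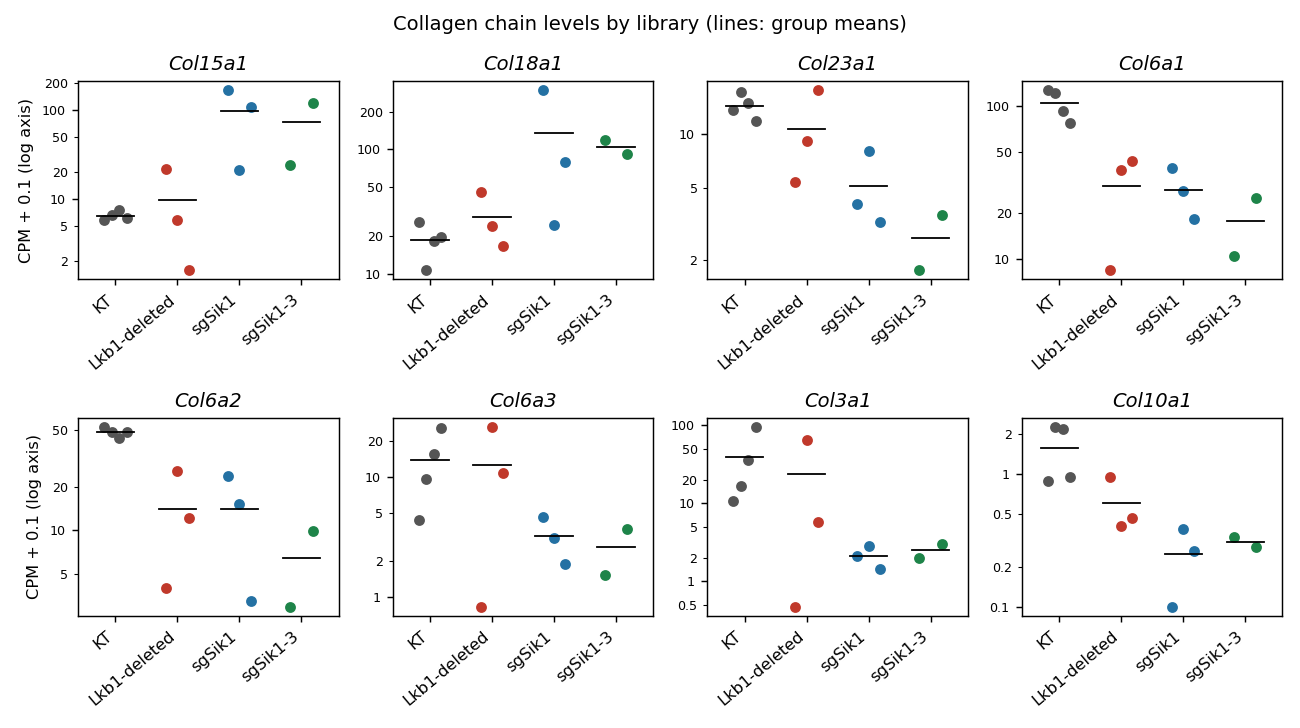
Level of 8 of the 10 called chains (CPM plus 0.1, log axes that differ between panels) in each library of the 4 title groups, with lines at group means. Every Sik-targeted Col15a1 value lies above the KT values, and every Sik-targeted Col6a1, Col6a2, Col23a1, Col3a1 and Col10a1 value lies below them.

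Among fibrillar chains, Col3a1 fell with Sik targeting. It encodes the type III chain, which co-assembles with type I collagen in distensible tissue. KT replicates 1 to 4 held 10.5, 16.5, 35.5 and 95.1 CPM, a wide spread, while the sgSik1 libraries held 1.99, 2.70 and 1.31 CPM and the sgSik1-3 libraries 1.89 and 2.90 CPM. All Sik-targeted libraries were below all KT libraries and close to each other. The log2 change was -4.19 (SE 1.01, adjusted p = 0.0186), and it was -4.65 (SE 1.18, adjusted p = 0.0936) without KT replicates 2 and 3. The call was also lost without KT replicate 4 (log2 change -3.31, adjusted p = 0.0525) and without sgSik1 replicate 1 (-4.19, adjusted p = 0.0585). Lkb1-deleted libraries held 0.365, 64.0 and 5.69 CPM: replicate 1 was below every other library and replicate 2 was within the KT range (log2 change against KT -0.74, SE 1.03, adjusted p = 0.830).

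The type I chains varied in the same libraries without passing. Col1a1, which encodes the alpha 1 chain of type I collagen, was at 5.82, 33.3, 79.7 and 132 CPM in KT replicates 1 to 4. In Sik-targeted libraries it was at 25.3, 11.3 and 6.28 CPM (sgSik1) and 9.21 and 22.1 CPM (sgSik1-3), and KT replicate 1 was below all 5 of them (log2 change -2.09, SE 0.94, adjusted p = 0.158). Lkb1-deleted libraries ran from 0.972 CPM in replicate 1 and 25.0 CPM in replicate 3 to 113 CPM in replicate 2. Col1a2, which encodes its partner chain, was at 6.77, 27.7, 47.2 and 95.5 CPM in KT libraries. It was at 5.97, 6.41 and 2.51 CPM in sgSik1 and 5.91 and 6.52 CPM in sgSik1-3 libraries, all below KT although replicate 1 was near them. Its log2 change was -3.03 (SE 0.97, adjusted p = 0.0561). In Lkb1-deleted libraries Col1a2 was at 0.122, 68.3 and 12.1 CPM, so replicate 1 was again the lowest of all. Per kilobase, Col1a2 stood at 0.657 to 1.29 of Col1a1 in KT libraries and at 0.262 to 0.711 in Sik-targeted libraries.

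Of the other fibrillar chains, Col5a1 (log2 change -1.79, adjusted p = 0.104), Col5a2 (-2.89, adjusted p = 0.0851), Col11a2 (-1.56, adjusted p = 0.324) and Col27a1 (0.27, adjusted p = 0.813) did not pass with Sik targeting. Col2a1, Col5a3, Col11a1 and Col24a1 were not tested in the 3 genotype groups. Col11a1 and Col24a1 had 93.8% and 91.9% of their counts in KT replicates 2 and 3, and Col5a3 had 90.2%.

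Fibrillar chains summed to 29.4, 110, 199 and 351 CPM in KT replicates 1 to 4, to 4.50, 271 and 53.3 CPM in Lkb1-deleted libraries and to 14.3 to 49.7 CPM in Sik-targeted libraries. A list of 21 fibroblast and pericyte markers summed to 30.7, 94.2, 105 and 247 CPM in the same KT libraries, to 7.29, 351 and 69.6 CPM in Lkb1-deleted libraries and to 21.5 to 41.8 CPM in Sik-targeted libraries. The 2 sums put the same library of each of KT and Lkb1-deleted highest and lowest. With Sik targeting 7 of 17 tested markers fell and 1, Tagln, rose, against 6.56% and 5.81% of all genes (median log2 change -2.91, against -0.03). Markers such as Fap, at most 0.569 CPM outside KT, passed the filter only through KT counts and had to be lower. The count of 7 and this median are therefore descriptions. The list had 0 to 3 members at 0 counts in KT, 1 to 11 in Lkb1-deleted and 2 to 10 in Sik-targeted libraries. Lkb1-deleted replicate 1 lacked Pdgfra, Lum, Thy1, Fap, Dpt, Mfap5, Des, Pi16, Tcf21, Mfap4 and Inmt, and sgSik1-3 replicate 1 lacked Pdgfrb, Lum, Thy1, Fap, Fbln1, Dpt, Mfap5, Des, Pi16 and Tcf21. The part of stromal cells in the fibrillar and type VI values was not tested. The sort removed cells by staining for F4/80, Ter119, CD31 and CD45, a gate that does not name a fibroblast marker, and in bulk RNA fewer cells of a type and less RNA per cell cannot be told apart.

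**Figure D4:**
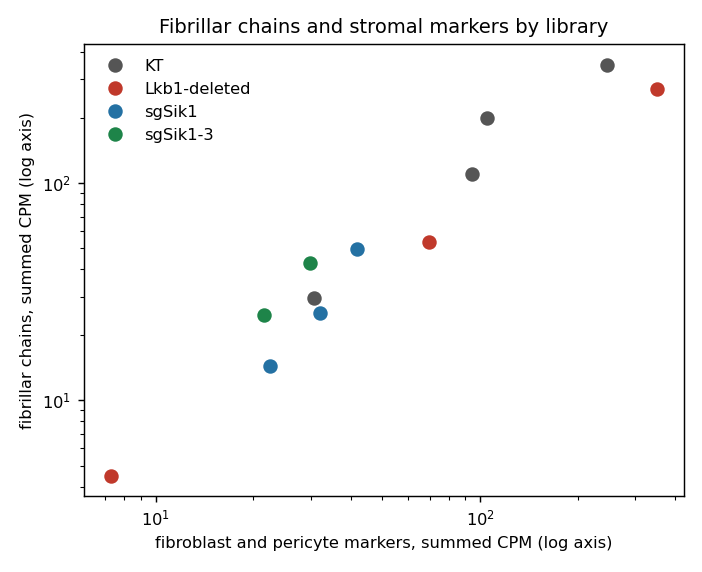
Summed CPM of 11 fibrillar chains (vertical, log axis) against summed CPM of 21 fibroblast and pericyte markers (horizontal, log axis), one point for each of 12 libraries, coloured by group. Lkb1-deleted replicate 1 is the lowest point on both axes (4.50 and 7.29 CPM), and KT replicate 4 and Lkb1-deleted replicate 2 are the highest. The points share their libraries and depth.

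Markers of other cells moved too. Of 12 leukocyte and macrophage markers, 9 of 11 tested fell with Sik targeting (median log2 change -4.83) and 6 of 11 with Lkb1 deletion (median -5.61), where 6.56% and 0.552% of all genes fell. Markers such as Tyrobp and Marco, at most 0.41 CPM outside KT, passed the filter only through KT counts and had to be lower. These counts and medians are therefore descriptions. The 12 markers summed to 4926 to 13450 CPM in KT, 708 to 2028 CPM in Lkb1-deleted and 89.6 to 1070 CPM in Sik-targeted libraries. Lyz2, which alveolar type 2 cells also express, made up most of each sum. It was at 4707 to 13350 CPM in KT, 697 to 2014 CPM in Lkb1-deleted and 70.1 to 1062 CPM in Sik-targeted libraries. Ptprc, which encodes CD45, was at 1.06 to 7.89 CPM in KT libraries and at most 0.724 CPM elsewhere. Cd52 and Tyrobp were at 0 in all Lkb1-deleted and Sik-targeted libraries. Of 10 endothelial markers, 1 (Esam) fell with Sik targeting (median -0.39), and their sum was 48.8 to 68.1 CPM in KT, 21.2 to 52.1 CPM in Sik-targeted and 6.93 to 250 CPM in Lkb1-deleted libraries, where Cdh5 reached 75.0 CPM. Of 6 mesothelial markers, 3 were tested. Msln rose from 4.88 to 19.5 CPM in KT to 115 to 332 CPM in Sik-targeted libraries. Gpm6a and Upk1b, at most 0.514 CPM outside KT, fell. They passed the filter only through KT counts and had to be lower, so their falls are descriptions. Of 10 epithelial markers, Krt8, Krt18 and Krt19 rose and Sftpc fell (median 0.94). None of 6 tested genes of mesenchymal transition passed (median -1.96). With Sik targeting 5.81% of all genes rose, 6.56% fell and 12.4% were called in either direction. Whether these cells contributed to any collagen value was not tested.

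Of the 6 type IV chains 1, Col4a4, passed with Sik targeting and 0 passed with Lkb1 deletion, against 12.4% and 1.16% of all genes. Col4a1 encodes the first chain of the ubiquitous network. It was at 116, 101, 129 and 200 CPM in KT libraries and at 95.7, 233 and 169 CPM in Lkb1-deleted libraries. sgSik1 libraries held 340, 136 and 136 CPM and sgSik1-3 libraries 95.2 and 316 CPM, so the groups overlapped (log2 change with Sik targeting 0.58, SE 0.41, adjusted p = 0.378). Col4a2, its partner, was at 110, 152, 198 and 248 CPM in KT and at 111, 280 and 263 CPM in Lkb1-deleted libraries. The sgSik1 libraries held 422, 154 and 183 CPM and the sgSik1-3 libraries 138 and 317 CPM, again with overlap (log2 change 0.46, SE 0.40, adjusted p = 0.491). Per kilobase, the ratio of Col4a1 to Col4a2 stayed between 0.625 and 1.03 over the 12 libraries, a 1.64-fold span. The 2 genes sit head to head on chromosome 8 and overlap by 22 bases at their starts (11312826 for Col4a1 on the minus strand, 11312805 for Col4a2 on the plus strand, GENCODE M21 on GRCm38). The strand setting of the counting is not given in the sources used here, so reads in the overlap, of 85 bases by the RefSeq spans, cannot be assigned to one of them.

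Col4a3, a chain of the alveolar and glomerular network, was at 62.9, 145, 244 and 152 CPM in KT replicates 1 to 4. Lkb1-deleted libraries held 1.82, 68.3 and 65.2 CPM, sgSik1 libraries 7.96, 81.0 and 23.1 CPM and sgSik1-3 libraries 9.92 and 15.8 CPM. Only KT replicate 1 was within the range of the mutant libraries. The log2 change with Sik targeting was -2.45 (SE 0.82, adjusted p = 0.0672) and with Lkb1 deletion -1.75 (SE 0.96, adjusted p = 0.477). Col4a4, which assembles with it, was at 25.2, 54.0, 65.1 and 39.3 CPM in KT libraries. Lkb1-deleted libraries held 0.729, 13.2 and 17.3 CPM, sgSik1 libraries 6.25, 21.8 and 6.77 CPM and sgSik1-3 libraries 2.60 and 4.71 CPM. All 8 mutant libraries were below all KT libraries. Col4a4 fell with Sik targeting (log2 change -2.43, SE 0.68, adjusted p = 0.0328) and did not pass with Lkb1 deletion (-2.15, SE 0.81, adjusted p = 0.251). The Sik-targeted call was lost without KT replicate 2 (adjusted p = 0.0881), 3 (0.0952) or 4 (0.0512), when sgSik1 replicate 1 (0.0855) or 3 (0.0746) or sgSik1-3 replicate 1 (0.0671) or 2 (0.0776) was left out, and the change was -1.94 (adjusted p = 0.296) without KT replicates 2 and 3.

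Per kilobase, Col4a4 stood at 0.163 to 0.665 of Col4a3 in the 12 libraries, where the highest ratio, in sgSik1 replicate 1, came from 22 and 28 counts. Over the same libraries the ratio of Col4a3 to Col4a1 ran from 0.0147 to 1.46, a 99.2-fold span. Col4a3 and Col4a4 are also head to head, on chromosome 1, with Col4a3 starting at 82586921 on the plus strand. In GENCODE M21 Col4a4 starts at 82586849 on the minus strand, leaving 71 bases between them, whereas its RefSeq span starts at 82587034 and overlaps Col4a3 by 114 bases.

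Col4a5, the third chain of that network, was at 13.5, 14.7, 18.6 and 13.0 CPM in KT libraries. It was at 1.94, 24.1 and 9.0 CPM in Lkb1-deleted, 3.98, 14.1 and 2.78 CPM in sgSik1 and 5.43 and 1.99 CPM in sgSik1-3 libraries, and the groups overlapped (log2 change with Sik targeting -1.40, SE 0.61, adjusted p = 0.145). Col4a6, which pairs with Col4a5 in other basement membranes, was low throughout. KT libraries held 1.73, 2.68, 4.98 and 2.55 CPM, Lkb1-deleted libraries 0.122, 3.39 and 3.12 CPM, sgSik1 libraries 0.284, 4.27 and 0.0546 CPM and sgSik1-3 libraries 0.709 and 0.543 CPM. It did not pass with Sik targeting (log2 change -1.33, SE 0.94, adjusted p = 0.378). In sgSik1 replicate 2 each of Col4a3, Col4a4, Col4a5 and Col4a6 was higher than in the 4 other Sik-targeted libraries, while Col4a1 and Col4a2 were not. In Lkb1-deleted replicate 1 each of the 4 was the lowest of its group.

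**Figure D5:**
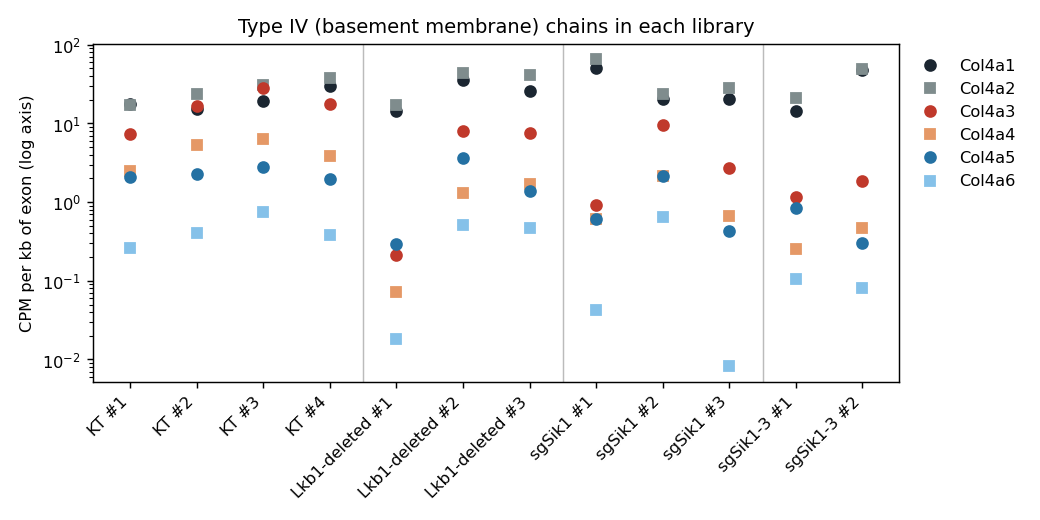
Level of the 6 type IV chains per kilobase of exon (vertical, log axis) in the 12 libraries, grouped by title with vertical lines between groups. Col4a1 and Col4a2 lie between 14.4 and 65.4 CPM per kb in all libraries, while Col4a3 runs from 0.213 to 28.6 CPM per kb.

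The remaining called chains were of low or moderate level. Col23a1, a transmembrane collagen, was at 13.5, 17.1, 14.8 and 11.7 CPM in KT libraries. It was at 3.98, 7.97 and 3.17 CPM in sgSik1 and 1.65 and 3.44 CPM in sgSik1-3 libraries, all below KT. Col23a1 fell by 1.81 on the log2 scale (SE 0.44, adjusted p = 0.0170). The call was lost without KT replicate 2 (adjusted p = 0.0567) and without KT replicates 2 and 3 (-1.64, adjusted p = 0.180). Lkb1-deleted libraries held 5.35, 9.05 and 17.5 CPM and overlapped KT (log2 change -0.44, adjusted p = 0.777).

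Col10a1, the network-forming chain known from growth-plate cartilage, was at 0.787, 2.16, 2.09 and 0.849 CPM in KT libraries. Sik-targeted libraries held at most 0.285 CPM and sgSik1 replicate 1 none, all below KT (log2 change -2.95, SE 0.77, adjusted p = 0.0240). Lkb1-deleted libraries held 0.851, 0.309 and 0.367 CPM. Col13a1, a transmembrane chain found at cell adhesions, had 58 counts in KT libraries, 51 of them in replicates 2 and 3. It had 2 counts in Sik-targeted libraries, both in sgSik1 replicate 1, a ratio of 30.3 (95% counting interval 8.02 to 256), and 6 in Lkb1-deleted libraries. The fitted log2 change was -4.09 (SE 1.28, adjusted p = 0.0482). Neither Col10a1 nor Col13a1 passed the filter on low counts without KT replicates 2 and 3. With each of the 12 libraries left out in turn, Col10a1 passed the test in 7 fits, missed it in 2 (adjusted p = 0.0588 without sgSik1 replicate 3 and 0.0529 without sgSik1-3 replicate 2) and was not tested in 3, those without KT replicate 1, 2 or 3. Col13a1 passed in 3 fits, missed in 6 (adjusted p up to 0.111, without sgSik1 replicate 3) and was not tested in 3, those without KT replicate 2, 3 or 4.

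Among fibril-associated chains, Col14a1 differed most between the 2 mutant genotypes by p. It was at 0.629, 3.5, 22.6 and 12.7 CPM in KT libraries, 0.122, 2.26 and 0.551 CPM in Lkb1-deleted, 18.2, 2.56 and 17.9 CPM in sgSik1 and 36.9 and 15.9 CPM in sgSik1-3 libraries. All Lkb1-deleted libraries were below all Sik-targeted libraries, and the KT range held 1 of the 3 Lkb1-deleted and 4 of the 5 Sik-targeted libraries. Neither the comparison with KT (Lkb1-deleted, log2 change -3.25, SE 1.12, adjusted p = 0.200) nor that between the mutants (-4.13, SE 1.14, adjusted p = 0.167) passed. Col16a1 was at 1.73, 3.65, 3.13 and 2.76 CPM in KT libraries, 0.243, 3.5 and 1.10 CPM in Lkb1-deleted libraries, 1.14, 0.854 and 0.273 CPM in sgSik1 libraries and 0.236 and 0 CPM in sgSik1-3 libraries. Its Sik-targeted libraries were all below KT without passing (adjusted p = 0.0579).

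Of the 29 tested chains, 1 (Col15a1) was higher in every Sik-targeted than in every KT library and 9 were lower, against 7.32% and 8.79% of all genes tested. Col10a1, among the 9, passed the filter only through its KT counts and had to be lower. The count of 9 is therefore a description. Among the 14 untested chains, Col6a5, Col19a1, Col22a1 and Col9a1 had 88, 57, 59 and 25 counts in KT libraries and 0 in Sik-targeted libraries. Against a floor of 3 counts over the group these levels were at least 30.7-fold, 19.9-fold, 20.6-fold and 8.71-fold lower. In all, 11 chains had over 80% of their counts in KT replicates 2 and 3, which hold 15.9% of all counts. Besides those named above these were Col9a1 (96.2%), Col19a1 (100%), Col22a1 (98.3%), Col25a1 (88.9%) and Col28a1 (86.5%). Olfactory receptor genes had counts in the same 2 libraries, and the part of this in the 11 chains was not tested.

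No chain passed between Lkb1-deleted and KT libraries, where 0.611% of all genes rose, 0.552% fell and 1.16% were called in either direction. At an unadjusted p under 0.05, 0 chains were higher and 4 lower, against 6.41% and 6.72% of all genes, and DESeq2 called 2, against 4.09% of all genes. The median log2 change of the 29 tested chains was -0.71, against -0.04 for all genes tested. Col10a1 and Col13a1, among the 29, passed the filter only through their KT counts and so had to be lower. This median is therefore a description. Lower in every Lkb1-deleted than in every KT library were 3 chains, Col4a4, Col6a1 and Col6a2, against 8.30% of all genes, and 0 chains were higher in every one, against 6.38%. Lkb1-deleted replicate 1 had the lowest level of its group for Col1a1, Col1a2, Col3a1, Col6a1, Col6a2, Col6a3 and Col4a3 to Col4a6, and the highest for Col15a1 and Col18a1. Without it Col1a1 moved from -0.43 to 0.16, Col4a5 from -0.35 to 0.17 and Col4a6 from -0.45 to 0.13. Col6a5 and Col11a1, untested here, were at least 18.6-fold and 13.3-fold lower than in KT, whose counts lay nearly all in replicates 2 and 3. Between Lkb1-deleted and Sik-targeted libraries 0 chains passed either in edgeR, against 0.103% of all genes higher, 0.118% lower and 0.221% in either direction. At an unadjusted p under 0.05, 6 were higher and 4 lower, against 6.96% and 5.73% of all genes, and DESeq2 called 4, against 2.55% of all genes. Without overlap, 1 chain was higher (Col10a1, 2.45% of all genes) and 1 lower (Col14a1, 2.93%). Of chains higher in Lkb1-deleted libraries, Col3a1 had the largest change (log2 change 3.45, SE 1.03, adjusted p = 0.192). It was 0.44 without Lkb1-deleted replicate 2 (adjusted p = 1) and 4.02 without replicate 1 (adjusted p = 0.00710). Both comparisons with KT share the KT libraries, so their values stand side by side and were not correlated.

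Taken by title, in a fit of 4 groups with 15303 genes and 40 tested chains, sgSik1 libraries had 2 chains higher than KT and 0 lower, against 2.71% and 1.13% of all genes (3.84% in either direction). These were Col15a1 (log2 change 3.95, SE 0.83, adjusted p = 0.0217) and Col18a1 (2.87, SE 0.63, adjusted p = 0.0222). Col6a1, at -1.86 (adjusted p = 0.0545), missed the threshold. Both rises were lost without sgSik1 replicate 1 (adjusted p = 0.147 for Col15a1 and 0.166 for Col18a1). Both were also lost without any 1 of KT replicates 2, 3 and 4, and that of Col15a1 without KT replicate 1 (0.0637) or sgSik1 replicate 3 (0.0526). Without KT replicates 2 and 3 the changes were 4.03 (adjusted p = 0.246) and 2.51 (adjusted p = 0.279). At 0 counts in sgSik1 libraries, Col11a1, Col22a1 and Col6a5 were at least 16.4-fold, 15.4-fold and 22.9-fold lower than in KT, and none was called. Of their counts over all libraries, 93.8%, 98.3% and 100% lay in KT replicates 2 and 3, so these bounds rest on those 2 libraries. Of the 40 tested chains 1 was higher in every sgSik1 than in every KT library and 10 were lower, against 8.24% and 10.6% of all genes. Col11a1, among the 10, passed the filter only through its KT counts and had to be lower. The count of 10 is therefore a description.

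The sgSik1-3 libraries had 1 chain higher than KT and 2 lower, against 1.74% and 1.15% of all genes (2.89% in either direction). Col15a1 rose by 3.52 (SE 0.86, adjusted p = 0.0447), Col6a1 fell by 2.53 (SE 0.63, adjusted p = 0.0417) and Col23a1 fell by 2.45 (SE 0.62, adjusted p = 0.0461). Col18a1 was at 2.52 (adjusted p = 0.0524). All 3 calls were lost when any single KT or sgSik1-3 library was left out, and without sgSik1-3 replicate 2 Col15a1 dropped to 1.93 (adjusted p = 0.505). Without KT replicates 2 and 3 the changes were 3.65 for Col15a1 (adjusted p = 0.245), -2.50 for Col6a1 (adjusted p = 0.202) and -2.27 for Col23a1 (adjusted p = 0.227). Col5a3, Col6a5, Col24a1 and Col13a1 had 0 counts in sgSik1-3 libraries, and none was called. They were at least 9.86-fold, 7.75-fold, 6.16-fold and 5.11-fold lower than in KT. Of their counts over all libraries, 90.2%, 100%, 91.9% and 77.3% lay in KT replicates 2 and 3, so these bounds rest mainly on those 2 libraries. The median log2 change of the 40 tested chains was -2.42, or -2.18 with chains at 0 counts set to their bound, against -0.25 for all genes. Without overlap, 2 were higher and 14 lower than in every KT library, against 14.9% and 20.9% of all genes. Col5a3, Col6a5, Col24a1 and Col13a1 passed the filter only through their KT counts and so had to be lower. The median and the count of 14 are therefore descriptions.

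Between sgSik1-3 and sgSik1 libraries 0 of 40 tested chains passed in edgeR, 0 had an unadjusted p under 0.05, and DESeq2 called 0. Of all genes 0% passed in edgeR, 0.640% were higher and 2.81% lower at an unadjusted p under 0.05, and DESeq2 called 0.0394%. The difference for Col15a1 was -0.44 (95% interval -2.25 to 1.38), for Col18a1 -0.35 (-1.78 to 1.09) and for Col6a1 -0.67 (-1.85 to 0.51), intervals of 1.96 SE that leave room for differences of over 2-fold. Smallest in p was Col4a4 (log2 change -1.67, unadjusted p = 0.0926), lower in both sgSik1-3 than in all 3 sgSik1 libraries. In all, 3 chains were higher without overlap and 5 lower, against 6.39% and 8.55% of all genes.

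Genes that make, bind or sit beside collagen were read from lists. Of 31 tested genes of collagen synthesis, folding and crosslinking, 0 rose and 2 fell with Sik targeting, near the 5.81% and 6.56% of all genes tested (median log2 change -0.21, against -0.03 for all genes). Bmp1, which removes the C-terminal propeptide of fibrillar chains, was at 52.9 to 130 CPM in KT and 4.73 to 31.6 CPM in Sik-targeted libraries (log2 change -2.57, SE 0.51, adjusted p = 0.00707). Adamts2, which removes the N-terminal propeptide, fell from 0.472 to 6.58 CPM in KT to at most 0.568 CPM (-3.75, adjusted p = 0.0392), with overlap between the groups. Of 9 tested collagen receptors 1 rose and 1 fell, against 5.81% and 6.56% of all genes (median -1.34). Ddr1, the discoidin receptor of epithelial cells, rose (1.63, adjusted p = 0.0471), and Ddr2, its counterpart in mesenchymal cells, fell (-3.37, adjusted p = 0.0262). Of 16 other basement membrane genes 2 rose and 1 fell, against 5.81% and 6.56% of all genes (median 0.41). Hspg2, the proteoglycan perlecan, went from 34.1 to 89.8 CPM in KT to 85.1 to 696 CPM in Sik-targeted libraries (2.16, adjusted p = 0.0254). Lamb1, a laminin chain, rose (1.63, adjusted p = 0.0359) and Lamc3, another, fell (-4.49, adjusted p = 0.0489). Lamc3 was near the floor, at 0 to 1.91 CPM in KT and at most 0.284 CPM in Sik-targeted libraries, with overlap. With Lkb1 deletion 0 genes of these 3 lists passed (medians 0.07, 0.70 and 0.39), Bmp1 having the smallest unadjusted p among them (-1.66, adjusted p = 0.210).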

How the data were processed

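RNA of 12 libraries of sorted lung tumour cells was read on 1 deposited table. Per the labels' protocols, RNA from the sorted cells was amplified as cDNA and sequenced in read pairs. Per the submitters' processing notes, the authors used STAR 2.4.2a, HTSeq and mm10. Neither annotation nor strand setting is given in the sources used here. Values are deposited as whole-number counts for each gene symbol, without molecule tags. Every column matched 1 sample by title.

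Counts were tested with edgeR 4.0.16 (R 4.3.3): TMM, filterByExpr, robust quasi-likelihood F test, 2-sided, Benjamini-Hochberg over all tested genes, threshold 0.05. One fit held 3 genotype groups (13575 genes, common dispersion 0.262) and another 4 title groups (15303 genes, 0.287). The SE is the absolute log2 change over the square root of F. Counting intervals (95% binomial) and floors of 3 counts cover counting error only. The precision follows depth: 3 counts correspond to 0.164 to 0.853 CPM in single libraries. Exon lengths came from GENCODE M21, which matched all 43 chains, and promoters from RefSeq, which had 35.

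Chains named with every library were those past 0.05 in any comparison, the 3 with the largest change and the 3 with the smallest p in each, all type IV chains, Col1a1, Col1a2, Col3a1 and the 3 highest per kilobase. At most 4 members of each other list were named. The members, lists and alternatives were chosen with earlier results of these data known. Alternatives were RLE size factors, TMM without the 4 most abundant transcripts, DESeq2 1.42.0, no filter, only the groups compared, a replicate block and libraries left out. Libraries of a group all differed by more than sampling noise (lowest chi-square per degree of freedom 17.4). The fits were tested on simulated data.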

Additional observations from a re-analysis of the deposited data

Results flagged for a closer look

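In 8 of 56 groups examined (each chain named with its libraries, and 4 class sums, in the 4 KT and in the 5 Sik-targeted libraries), 1 library lay apart from the rest of its group by Dixon's ratio. Chance alone flags about 1 in 20 groups. All 8 were among Sik-targeted libraries. In sgSik1 replicate 2, Col4a3 was at 81.0 CPM against 23.1 CPM in the next library, Col4a4 at 21.8 against 6.77 CPM, Col4a5 at 14.1 against 5.43 CPM and Col4a6 at 4.27 against 0.709 CPM, each the highest of its group. Col1a2 was lowest in sgSik1 replicate 3, at 2.51 CPM against 5.91 CPM in the next library. The other 3 were chains seen in 1 library only, where the other 4 held none: Col13a1 at 0.568 CPM in sgSik1 replicate 1, Col24a1 at 0.142 CPM in sgSik1 replicate 2 and Col11a1 at 0.236 CPM in sgSik1-3 replicate 1, from 1 or 2 counts each.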

How the results depend on the processing

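Counts of called chains held within 1.5 times under RLE size factors and under TMM without the 4 most abundant transcripts in all 6 comparisons. DESeq2 called 2 chains (0 in edgeR) for Lkb1-deleted against KT, 4 (0) for Lkb1-deleted against Sik-targeted, 6 (2) for sgSik1 and 8 (3) for sgSik1-3 against KT. Of all genes, DESeq2 called 4.09% for Lkb1-deleted against KT and 2.55% for Lkb1-deleted against Sik-targeted. With no filter on low counts, 6 and 24 chains passed for Lkb1-deleted and Sik-targeted against KT, 8 between them, and 16 and 12 for sgSik1 and sgSik1-3 against KT. With only the groups compared, 7 passed for sgSik1 and 11 for sgSik1-3. Beyond those DESeq2 shares, the share of all genes called is not shown for the alternative fits of this paragraph. Their counts of chains are therefore descriptions. Without KT replicates 2 and 3, 0 passed for Sik-targeted, sgSik1 and sgSik1-3 against KT. With single libraries left out, the counts ran from 4 to 23 for Sik-targeted (main 10), 0 to 8 for sgSik1 (2) and 0 to 9 for sgSik1-3 (3) against KT, 0 to 4 between Lkb1-deleted and Sik-targeted, and stayed at 0 in the other 2 comparisons. Such fits with 1 sgSik1-3 library assume that it varies like the other groups. Sik-targeted Col15a1, Col18a1 and Col6a1 each passed in 18 of 19 alternatives, Col23a1 in 17, Col3a1 in 16, Col4a4 and Col6a2 in 11 and Col6a3 in 8, and Col10a1 in 11 and Col13a1 in 7 of 14. Over 51 chain results and 920 alternatives, 785 kept direction and call, 84 lost the call, 44 gained one and 7 changed sign. The sign changes were all for Lkb1-deleted against KT. Col4a6 came to 0.072 without KT replicates 2 and 3. With single libraries left out, Col1a1 ran from -2.28 to 0.21, Col3a1 from -3.73 to 0.16, Col4a1 from -0.032 to 0.57, Col4a5 from -1.46 to 0.17 and Col4a6 from -0.92 to 0.13. The cause of these shifts was not tested, apart from the smaller number of libraries. Titles number replicates in each group. Deviations from group means had r from -0.41 to 0.22 over 15 same-numbered pairs (median 0.075, against -0.041 over 38 other pairs). The 2 sgSik1-3 libraries deviate from their mean as mirror images, so this check cannot decide whether the numbers pair libraries. With a replicate block, 9 chains passed for Sik-targeted, 1 for sgSik1 and 0 for sgSik1-3 against KT. Depth limits chains such as Col13a1, which rests on 2 counts in Sik-targeted libraries.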
